A study of Sus scrofa with 12 samples.

Results

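Wnt ligands, their receptors and the pathway target AXIN2 were examined in heart tissue from 6 pigs. The 10 genes, chosen by name, were the ligands WNT2, WNT2B, WNT5A, WNT9A and WNT11, the receptors FZD1, FZD2, FZD4 and ROR2, and AXIN2. All 10 were found by symbol among the 35682 genes of the count tables. RNA was sequenced from the border zone, next to the infarct, and from the remote zone in the posterior wall, in 6 libraries each, with 1 library of each zone from each animal. The animals were female Yorkshire pigs that entered the study at 10 to 12 weeks of age. In every animal a balloon closed the left anterior descending coronary artery for 60 min before reperfusion, so the remote zone is the uninfarcted wall of an injured heart and not healthy tissue. From day 9 after the injury all received tacrolimus, mycophenolate mofetil and prednisolone, at daily doses of 0.75 mg/kg, 500 mg and 20 mg in that order. Surgery followed on day 14, with either EPC-SMC vascular organoids (human endothelial progenitor cells grown with smooth muscle cells) held in fibrin glue, or fibrin glue alone, and hearts were collected 28 days later. The labels do not give the treatment of each animal, so the treatments were not compared and each zone pools the animals. In the RefSeq models of Sscrofa11.1, ROR2 (ENSSSCG00000009593) lies at chr14:2803840-3035384, FZD1 (ENSSSCG00000036436) at chr9:71346994-71356488, FZD2 (ENSSSCG00000029838) at chr12:18740417-18742301 and AXIN2 (ENSSSCG00000017265) at chr12:12311293-12343207. Tissue of the zones is called border and remote tissue. Animals are named by their numbers, 1022, 1322, 1323, 1623, 1922 and 3622.

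Wnt proteins are secreted lipid-modified ligands that bind Frizzled (FZD) receptors on nearby cells. In the canonical branch, a Frizzled receptor with the coreceptor LRP5 or LRP6 stabilizes beta-catenin, which enters the nucleus and switches on target genes through TCF/LEF factors. In noncanonical branches, ligands such as WNT5A and WNT11 act through Frizzled receptors and coreceptors such as ROR2 on cell shape, polarity and movement without beta-catenin. Wnt signalling shapes the heart in the embryo, is low in the adult myocardium and is known to return in fibroblasts, endothelium and inflammatory cells after an infarct.

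AXIN2 is the textbook readout of the canonical branch, because TCF/LEF factors act on its gene and its protein feeds back to destroy beta-catenin. The 250 bases before its start are shown for that reason, beside those of ROR2, the gene of the group with the largest fitted difference between the zones. They were read from the RefSeq genome and gene models of Sscrofa11.1, 5′ to 3′ on the minus strand that carries both genes, at chr12:12343208-12343457 for AXIN2 and chr14:3035385-3035634 for ROR2. Capitals mark the TCF/LEF core CTTTGA, searched on both strands (reverse complement TCAAAG).
AXIN2: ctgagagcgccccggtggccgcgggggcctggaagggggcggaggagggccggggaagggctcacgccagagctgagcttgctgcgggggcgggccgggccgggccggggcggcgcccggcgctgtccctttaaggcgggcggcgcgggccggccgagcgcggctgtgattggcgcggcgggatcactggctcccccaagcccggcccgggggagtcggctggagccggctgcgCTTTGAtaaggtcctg
ROR2: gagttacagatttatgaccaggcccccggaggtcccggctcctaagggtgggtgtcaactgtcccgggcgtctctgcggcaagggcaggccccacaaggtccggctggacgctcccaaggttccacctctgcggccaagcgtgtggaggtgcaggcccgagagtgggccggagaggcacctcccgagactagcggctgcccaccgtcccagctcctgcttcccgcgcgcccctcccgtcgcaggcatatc
The AXIN2 window held the core once, at position -16 from the start of the gene, and the ROR2 window did not hold these letters. Of the 10 genes, 1 had the core in this window, while 10.7% of the 19531 windows of this length in the RefSeq table had it. A match describes the letters and does not show that a factor binds there.

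The libraries held between 15130210 and 30526110 counts on genes in border tissue and between 20091415 and 31618680 in remote tissue. Of the 10 genes, 8 passed the filter on low counts and were tested together with all 13844 genes that passed. Values are given as CPM, counts scaled to a common library size after TMM adjustment, in which gene length plays no part, so levels of different genes cannot be compared on this scale. The cardiomyocyte markers with an identifier were abundant in every library, which fits the label of heart muscle, with a summed level of 10106 to 56609 CPM over 9 genes in border tissue and 46562 to 81494 CPM in remote tissue. The summed level of 11 fibroblast and matrix genes was 3261 to 70052 CPM in border tissue and 1121 to 2780 CPM in remote tissue, and no library had any of these genes at 0. The highest matrix sum and the lowest cardiomyocyte sum were both those of border tissue of animal 1022. The border library of animal 3622 listed 28024 genes with a count, against 16932 to 20148 in the other 11 libraries. Mitochondrial genes took 5.69% to 17.3% of the counts in border tissue and 13.6% to 33.5% in remote tissue, and their part in the differences was not tested beyond leaving them out, which kept the ROR2 call.

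Of the receptors, ROR2 was higher in border tissue by the test over all genes with zone as the only term, a call that was lost with the animal as a replicate block (adjusted p = 0.0798 by edgeR, 0 of 8 genes called), and FZD1 and FZD2 were higher in border tissue of all 6 animals without passing it. FZD4, AXIN2 and all 3 tested ligands had differences of about their standard errors or less. The threshold was an adjusted p of 0.05 in the quasi-likelihood test of edgeR (Benjamini-Hochberg). It was passed by 1 of the 8 genes, against 2.07% of all genes tested (2.06% higher and 0.0144% lower in border tissue). At an unadjusted p under 0.05, 3 of the 8 were higher and none was lower, against 17.0% of all genes that were higher by that rule. The median log2 fold change over the 8 was 0.34, beside 0.04 over all genes. The order turned where the genes under the filter were counted among all genes, with 0.29 for the 8 beside 0.75 for 30084 genes in edgeR with no filter and 0.29 beside 0.45 by DESeq2. Over the 13844 genes alone those 2 fits had medians of -0.01 and -0.0081.

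**Figure D1:**
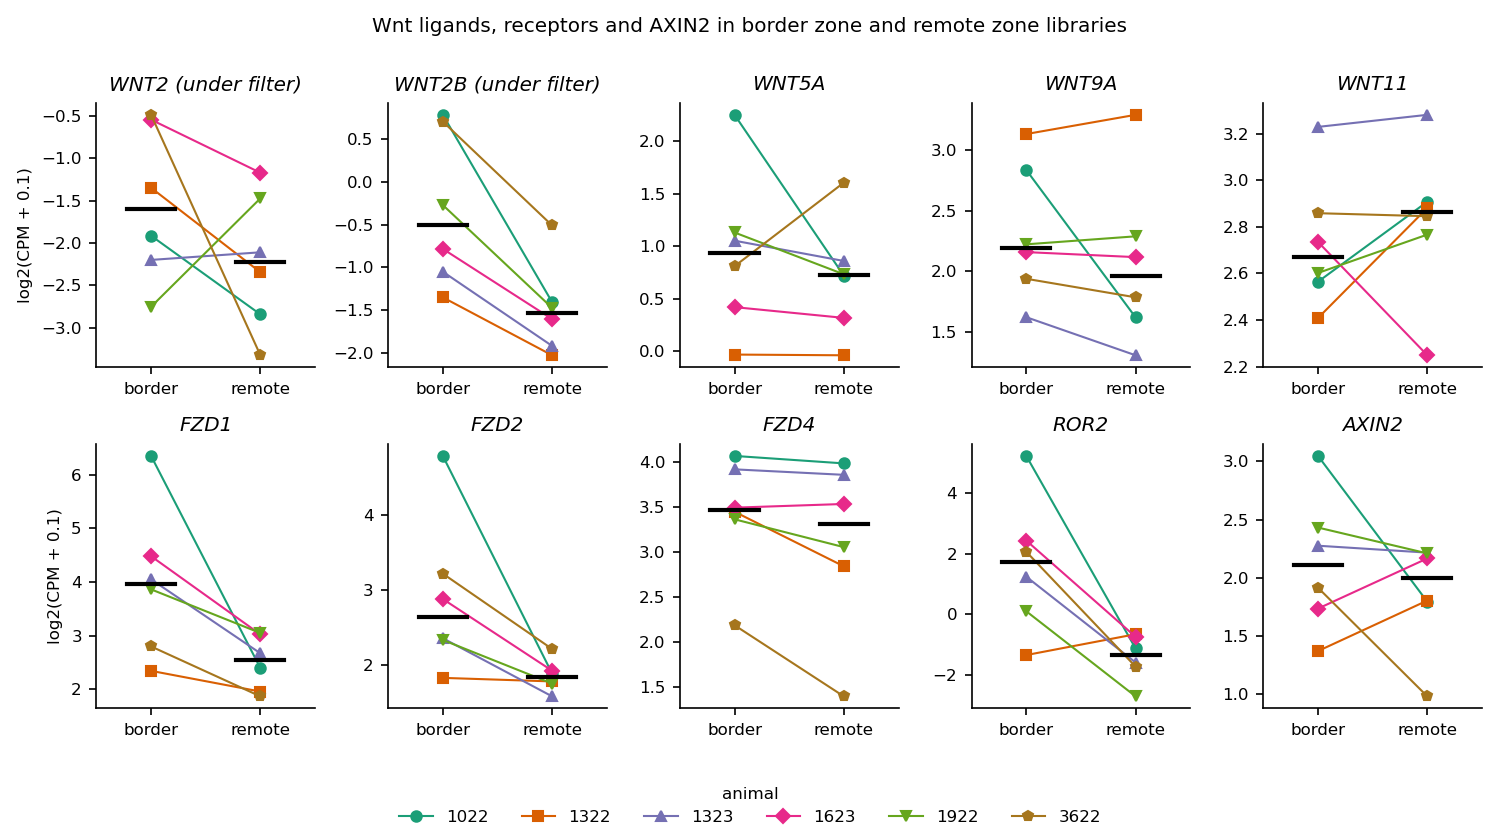
Level of each gene in the 12 libraries, as log2(CPM + 0.1) on a scale of its own for each panel, with a line joining both zones of 1 animal and a black bar at the median of each zone. The lines of FZD1, FZD2 and WNT2B fall from border to remote in all 6 animals, that of ROR2 falls in 5, and those of WNT11 rise in 4.

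ROR2, a receptor tyrosine kinase that binds WNT5A, had 37.7 CPM in border tissue of animal 1022, 5.32 in 1623, 4.10 in 3622, 2.27 in 1323, 0.971 in 1922 and 0.292 in 1322. In the remote zone it had 0.533 CPM in animal 1322, 0.496 in 1623, 0.356 in 1022, 0.230 in 1323, 0.201 in 3622 and 0.0520 in 1922, on 1 to 13 counts. Of the 6 border libraries, 5 lay above the highest remote library, and animal 1322 was the exception, with 6 counts in border tissue against 11 in remote tissue. The log2 fold change was 4.72 (standard error 1.04, adjusted p = 0.0353 by edgeR). A replicate block for the animal gave 3.62 (standard error 0.85, adjusted p = 0.0798 by edgeR), which ended the call, and by that fit 0.296% of all genes passed.
Of the CPM of ROR2 summed over border tissue, animal 1022 gave 74.4%. Without that animal the log2 fold change was 3.04 with adjusted p = 0.0765 by edgeR. The call was also lost without animal 1323, 1922 or 3622, with log2 fold changes of 4.80, 4.74 and 4.77 and adjusted p of 0.131, 0.0825 and 0.110 by edgeR, and it held without animal 1322 (5.15, adjusted p = 0.033). Few genes of any kind passed in the fits without 1323, 1922 or 3622, at 3, 15 and 0 of all genes tested against 287 with all animals, and 163 passed without 1022. At an unadjusted p under 0.05 there were 2448 genes without 3622. Without animal 1623 ROR2 fell under the filter and had no fit, and 0 of all genes passed, with 2662 at an unadjusted p under 0.05.

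**Figure D2:**
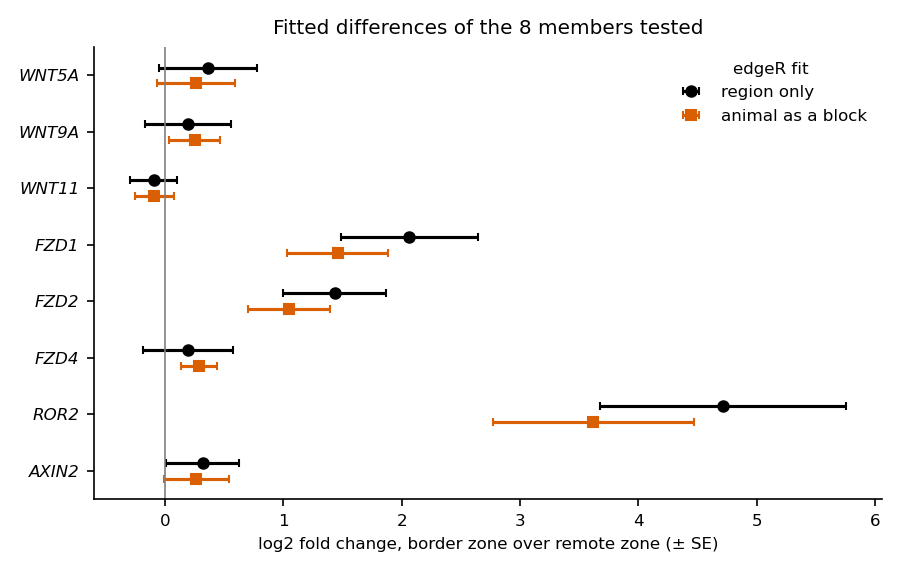
Log2 fold change of border zone over remote zone with its standard error for the 8 genes tested, from the edgeR fit with region only (black circles) and with the animal as a block (orange squares). ROR2 lies at 4.72 and 3.62, FZD1 at 2.07 and 1.46 and FZD2 at 1.43 and 1.05, while the other 5 genes lie between -0.10 and 0.37 in both fits.

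FZD1 and FZD2 are closely related Frizzled receptors that can signal through beta-catenin and through noncanonical routes. FZD1 had 81.3 CPM in border tissue of animal 1022, 22.2 in 1623, 16.4 in 1323, 14.4 in 1922, 6.85 in 3622 and 4.97 in 1322. In the remote zone it had 8.16 CPM in animal 1922, 8.01 in 1623, 6.26 in 1323, 5.15 in 1022, 3.78 in 1322 and 3.54 in 3622. Border tissue was higher in every animal, by 1.31-fold in 1322 to 15.8-fold in 1022 with a median of 2.28-fold, yet the zones overlapped, since 4 of 6 border libraries lay above the highest remote library. The log2 fold change was 2.07 (standard error 0.58, adjusted p = 0.0698 by edgeR).
FZD2 had 27.6 CPM in border tissue of animal 1022, 9.23 in 3622, 7.28 in 1623, 5.03 in 1323, 4.95 in 1922 and 3.46 in 1322. Its remote zone values lay close together, with 4.55 CPM in animal 3622, 3.70 in 1623, 3.60 in 1022, 3.34 in 1322, 3.27 in 1922 and 2.90 in 1323. Border tissue was higher by 1.03-fold in animal 1322 to 7.67-fold in animal 1022, and 5 of 6 border libraries lay above the highest remote library. The log2 fold change was 1.43 (standard error 0.44, adjusted p = 0.0863 by edgeR).
Both genes passed the threshold in the Wald test of DESeq2, with adjusted p = 0.00679 for FZD1 and 0.0289 for FZD2, a test by which 10.3% of all genes with an adjusted p passed. On simulated data DESeq2 made 28 false calls and found 57% of 2-fold and 87% of 4-fold changes. By edgeR there was 1 false call, and 33% and 82% were found. Without animal 1022 the edgeR log2 fold changes of FZD1 and FZD2 were 1.12 and 0.75. Of the 8 genes tested, these 2 were higher in border tissue of all 6 animals, a pattern shown by 11.7% of all genes tested. At least 5 of 6 animals were higher for 5 of the 8 (ROR2, FZD1, FZD2, FZD4 and WNT5A), against 28.8% of all genes.

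FZD4, a receptor of blood vessels that also answers to norrin, had values that varied with the animal. Its range was 4.46 to 16.7 CPM in border tissue, against 2.54 to 15.7 CPM in remote tissue. Both zones lay close together in some animals. Animal 1022 had 16.7 and 15.7 CPM in its border and remote libraries, and animal 1323 had 15.0 and 14.4. They lay farther apart in animal 1322, with 10.8 and 7.07 CPM, and in animal 3622, with 4.46 and 2.54, the lowest in each zone. Border tissue was higher in 5 of 6 animals, and border over remote went from 0.972-fold in 1623 to 1.76-fold in 3622. The log2 fold change was 0.20 (standard error 0.38, adjusted p = 0.785 by edgeR), and the standard error fell to 0.15 with the animal as a replicate block (0.29, adjusted p = 0.231).
Within a library, the ratio of FZD1 counts to FZD4 counts does not depend on the scaling. It was 4.88 in border tissue of animal 1022, 1.99 in 1623, 1.53 in 3622, 1.41 in 1922, 1.09 in 1323 and 0.459 in 1322. In the remote zone it was 1.39 in animal 3622, 0.994 in 1922, 0.698 in 1623, 0.534 in 1322, 0.435 in 1323 and 0.327 in 1022. The ratio was higher in border tissue of 5 of 6 animals, with animal 1322 again the exception, and gene lengths do not enter a comparison of the same ratio between libraries. That count is not particular to these receptors. The ratio of WNT9A counts to WNT11 counts, genes with differences within their standard errors, was also higher in border tissue of 5 of 6 animals.

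Of the ligands, none of the 3 tested passed the threshold. WNT5A, the main noncanonical ligand and a partner of ROR2, had 4.66 CPM in border tissue of animal 1022 and 0.877 to 2.09 CPM in the other 5. In the remote zone it had 0.872 to 2.94 CPM, with the highest value in animal 3622. The zones overlapped almost fully, and the log2 fold change was 0.37 (standard error 0.41, adjusted p = 0.615 by edgeR). Border tissue was higher in 5 of 6 animals, by 1.01-fold to 3.02-fold, and lower in animal 3622 (0.561-fold). The fitted value was -0.065 without animal 1022 and 0.67 without animal 3622. The ratio of ROR2 counts to WNT5A counts, whose size carries the lengths of both genes, was 0.333 to 8.09 in border tissue and 0.0333 to 0.611 in remote tissue, higher in border tissue of 5 of 6 animals.
WNT9A, a ligand of the canonical branch, had 2.97 to 8.67 CPM in border tissue and 2.37 to 9.69 CPM in remote tissue. Animal 1322 was highest in both zones, with 8.67 and 9.69 CPM, and animal 1323 lowest in both, with 2.97 and 2.37. The log2 fold change was 0.20 (standard error 0.36, adjusted p = 0.775 by edgeR), and -0.014 without animal 1022.
WNT11, a noncanonical ligand known for its part in the forming outflow tract, had 5.21 to 9.27 CPM in border tissue and 4.65 to 9.61 CPM in remote tissue. Animal 1323 was highest in both zones, with 9.27 and 9.61 CPM. WNT11 was the only tested gene of the group with a fitted value below 0, at -0.10 (standard error 0.20, adjusted p = 0.807 by edgeR), a direction that turned to 0.20 when libraries were scaled by their totals alone, a scaling that moved the median of all genes from 0.04 to 0.32.

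WNT2B and WNT2 had few counts and fell under the filter, so they were compared within animals on a log2(CPM + 0.1) scale by a two-sided exact permutation test of sign changes, whose smallest p with 6 animals is 0.03125. WNT2B, a canonical ligand, had 1.62 CPM in border tissue of animal 1022 (49 counts), 1.53 in 3622, 0.728 in 1922, 0.481 in 1623, 0.383 in 1323 and 0.292 in 1322 (6 counts). In the remote zone it had 0.602 CPM in animal 3622 (9 counts), 0.277 in 1022, 0.260 in 1922, 0.229 in 1623, 0.165 in 1323 and 0.145 in 1322 (3 counts). Border tissue was higher in 6 of 6 animals, and 3 border libraries lay above the highest remote library. All 6 animals were higher for 11.7% of all genes tested, a share not counted among genes under the filter. The mean difference was 1.16 on the log2(CPM + 0.1) scale (SD 0.55, n = 6), from 0.68 to 2.19 (exact permutation test, p = 0.03125, not adjusted for other genes). In fits that kept the gene it did not pass over all genes, with adjusted p = 0.19 by edgeR with no filter and 0.0665 by DESeq2.
WNT2, its close relative, had 1 to 17 counts in border tissue and 0 to 9 in remote tissue. It was higher in border tissue of 4 of 6 animals, by a mean of 0.67 on the log2(CPM + 0.1) scale (SD 1.36, n = 6, exact permutation test, p = 0.3125), and the animals differed in sign. In the library of animal 3622 that listed the most genes, WNT2B had 25 counts and WNT2 had 10. Without that animal the mean differences of WNT2B and WNT2 were 1.15 and 0.24.

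AXIN2 had 8.16 CPM in border tissue of animal 1022, 5.29 in 1922, 4.74 in 1323, 3.67 in 3622, 3.23 in 1623 and 2.48 in 1322. In the remote zone it had 4.54 CPM in animal 1323, 4.52 in 1922, 4.39 in 1623, 3.39 in 1322, 3.37 in 1022 and 1.87 in 3622. The zones overlapped, and border tissue was lower in animals 1322 and 1623 and higher in the other 4. The log2 fold change was 0.32 (standard error 0.30, adjusted p = 0.543 by edgeR), and 0.05 without animal 1022.

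Markers of some other cells moved with ROR2, FZD1 and FZD2. Over the 12 libraries, in which both libraries of an animal share that animal, the log2 CPM of ROR2 had a Pearson r of 0.89 with the log2 summed CPM of the fibroblast and matrix list and 0.91 with that of the 9 macrophage genes. FZD1 had 0.88 and 0.81 with these lists, and FZD2 had 0.90 and 0.96. Without animal 1022, over 10 libraries, the values were 0.80 and 0.84 for ROR2, 0.71 and 0.45 for FZD1, and 0.76 and 0.87 for FZD2. AXIN2 had 0.56 with the matrix list, and 0.16 without animal 1022. With the cardiomyocyte list the r was -0.84 for ROR2, -0.93 for FZD1, -0.87 for FZD2 and -0.79 for AXIN2, and without animal 1022 it was -0.68, -0.90, -0.48 and -0.66. With the endothelial list the r over 12 libraries was 0.29 for ROR2, 0.03 for FZD1 and 0.35 for FZD2, and without animal 1022 it was 0.06, -0.55 and 0.14. With the summed smooth muscle and pericyte list it was 0.08, -0.23 and -0.08, and without animal 1022 it was 0.57, 0.12 and 0.52. Most of that sum was DES, a muscle filament gene that cardiomyocytes also express, with a median of 13548 of 14271 CPM in border tissue. In the border library of animal 1022 the share was smaller, with 5121 of 8256 CPM. With the other 9 genes of the list, a sum chosen after the data were seen, the r was 0.86, 0.79 and 0.91, and without animal 1022 it was 0.84, 0.39 and 0.82. Their summed level was 604 to 3135 CPM in border tissue and 365 to 711 CPM in remote tissue. With the epicardial and mesothelial list, of which 1 gene was tested, the r was 0.54, 0.58 and 0.31, and without animal 1022 it was 0.52, 0.60 and 0.16. FZD4 had an r of -0.54 with the endothelial list and 0.61 with the epicardial and mesothelial list. Without animal 1022 these were -0.65 and 0.72. The summed macrophage level was 108.4 to 1250 CPM in border tissue and 101.6 to 196.6 CPM in remote tissue, and none of the 9 genes was at 0 in any library. All 11 matrix genes had positive fitted values, and 9 passed the threshold, against 2.07% of all genes, while with the animal as a block 1 passed, against 0.296%. These correlations describe the libraries, and the part of these cells in the differences of the receptors was not tested. In pieces of tissue, more cells of a type and more RNA per cell cannot be told apart.

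**Figure D3:**
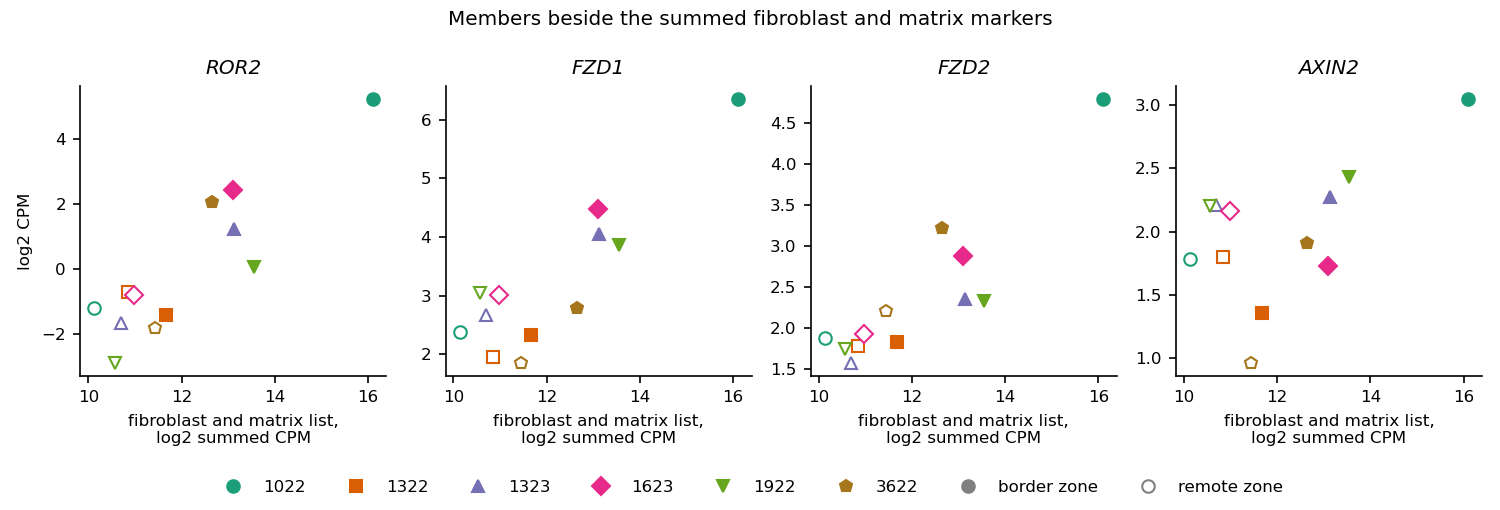
Log2 CPM of ROR2, FZD1, FZD2 and AXIN2 against the log2 summed CPM of 11 fibroblast and matrix genes, with filled symbols for border zone and open symbols for remote libraries. The border library of animal 1022 lies at the upper right of all 4 panels, and ROR2, FZD1 and FZD2 climb with the matrix sum among the other libraries more than AXIN2, whose r over 10 libraries without that animal was 0.16.

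The genes with the most similar pattern over the 12 libraries, by Pearson r of log2 CPM among 11726 tested genes with a symbol, differed between the genes of the group. For ROR2 they were DOCK11, RPS6KA1 and FMNL2, with r of 0.98, 0.97 and 0.97. For FZD2 they were ARHGAP4, ARHGAP22 and RNPEP (0.99, 0.98 and 0.98), and for FZD1 MARVELD1, GALNT2 and ENDOD1 (0.98 for each). Those of WNT5A were IER2, CD302 and EGR1 (0.91, 0.91 and 0.87), of which IER2 and EGR1 are immediate early genes that answer quickly to stress and growth signals. AXIN2 was closest to LRCH1, SMAD7 and NSD3 (0.95, 0.93 and 0.91), FZD4 to PHF3, MAP3K3 and FUT11 (0.98, 0.95 and 0.95), WNT9A to TRMT13, OAS1 and RGS12 (0.92, 0.88 and 0.88) and WNT11 to FAM186B, ARMCX6 and KLHL40 (0.88, 0.86 and 0.86). Such values are the highest among all genes compared and are given as a description.

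The rest of the pathway was read from 8 lists of 97 genes, of which 94 had an identifier and 70 were tested. Of these 70, 6 passed the threshold (8.57%), all higher in border tissue, against 2.06% of all genes, and their median log2 fold change was 0.21. The calls were in 3 lists. Among other receptors and coreceptors, 1 of 11 rose, PTK7, a kinase-dead receptor of the planar polarity branch. It had 4.68 to 69.4 CPM in border tissue and 2.34 to 6.15 in remote tissue, and its log2 fold change was 2.35 (standard error 0.57, adjusted p = 0.0494 by edgeR, and 0.108 with the replicate block). Without animal 1022 it was 1.31 (adjusted p = 0.0884 by edgeR), and the call was also lost with DESeq2 size factors, without mitochondrial genes, with no filter and with at least 10 counts in every library, at adjusted p of 0.0589, 0.0516, 0.101 and 0.0581 by edgeR. ROR1, the closest relative of ROR2 and named after its values were seen, was higher in border tissue of 6 of 6 animals, with 19.8 to 28.5 CPM against 9.56 to 26.0, but did not pass (0.76, standard error 0.23, adjusted p = 0.086 by edgeR). TSPAN12, LRP5, FZD7 and RYK, taken by mean CPM only to choose examples that did not pass, had values below 0, with log2 fold changes of -0.36, -0.13, -0.48 and -0.14. LRP5 is a canonical coreceptor, and TSPAN12 works with FZD4 in norrin signalling. LRP6, the other canonical coreceptor and named after its values were seen, was higher in border tissue of 5 of 6 animals. It did not pass (0.61, standard error 0.32, adjusted p = 0.244 by edgeR).

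Among 8 secreted antagonists tested, which bind ligands or coreceptors outside the cell, SFRP1, SFRP2 and SFRP4 rose, with 74.1 to 613, 2.68 to 376 and 2.29 to 25.5 CPM in border tissue against 18.1 to 34.6, 0 to 0.396 and 0.676 to 1.70 CPM in remote tissue. For each, all border libraries lay above all remote libraries, a pattern of 1.99% of all genes tested. The list median was 2.13, and with the replicate block 2 of its genes passed, SFRP1 and SFRP2, against 0.296% of all genes, while SFRP4 had an adjusted p = 0.0639 by edgeR. Without animal 1022 the log2 fold changes of SFRP1, SFRP2 and SFRP4 went from 3.15, 8.91 and 3.22 to 2.48, 7.37 and 2.73, and the 3 calls held in that fit. SFRP2, whose lowest remote library was at 0, lost its call with no filter (adjusted p = 0.0556 by edgeR) and had no fit with at least 10 counts in every library. FRZB, DKK3, SFRP5 and DKK1, chosen by mean CPM among those that did not pass, had 1.88, 1.48, 1.51 and -0.40 on the log2 scale, and DKK1 was higher in border tissue of 1 of 6 animals. Without the antagonists, 3 of 62 pathway genes passed, against 2.07% of all genes, and the median was 0.17. With the replicate block 0 of those 62 passed by edgeR, and the 3 (PTK7, APCDD1 and CCN4) had adjusted p of 0.108, 0.0709 and 0.0798.
Among 11 genes that beta-catenin switches on or that damp the pathway, 2 rose. APCDD1, a membrane inhibitor of Wnt reception, had 5.29 to 33.6 CPM in border tissue and 2.30 to 5.63 in remote tissue (adjusted p = 0.0276 by edgeR), and with the replicate block its log2 fold change was 1.97 (standard error 0.40, adjusted p = 0.0709 by edgeR). CCN4, a matricellular protein first found as WISP1, had 0.736 to 45.3 CPM against 0.0792 to 0.436 (log2 fold change 5.35, standard error 1.13, adjusted p = 0.0338 by edgeR, and 0.0798 with the replicate block). Without animal 1022 the log2 fold change of CCN4 was 3.02 (adjusted p = 0.0371 by edgeR) and that of APCDD1 was 1.57 (adjusted p = 0.0276). The CCN4 call was lost with no filter (5.27, adjusted p = 0.0873 by edgeR), and CCN4 had no fit with at least 10 counts in every library. CCND1, NKD2, MYC and ZNRF3, chosen in the same way, had 0.05, -0.44, 0.82 and -0.04 on the log2 scale. NKD1, named after its values were seen, had 2.73 (standard error 0.73, adjusted p = 0.0599 by edgeR).

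No gene of the other 5 lists passed. Of the other ligands, 3 of 13 with an identifier were tested, WNT5B, WNT9B and WNT3, with log2 fold changes of 0.10, 0.12 and 0.16. The 15 cytoplasmic and nuclear genes tested had a median of 0.10, and CTNNB1, the gene of beta-catenin itself, had 251 to 417 CPM in border tissue and 181 to 428 in remote tissue (0.08, standard error 0.23). The 18 genes tested of the planar polarity and noncanonical branch had a median of 0.26, and 6 of them had a positive value at an unadjusted p under 0.05, against 17.0% of all genes. RAC1, RHOA, PRICKLE2 and ROCK1, chosen in the same way, had -0.01, 0.22, -0.16 and 0.28. WLS, which carries Wnt proteins to the cell surface, had 1.23 (standard error 0.42, adjusted p = 0.109 by edgeR), and PORCN, which attaches their lipid, had 0.74. Of the R-spondin system, LGR4 and LGR6 were tested, with -0.33 and 0.27. The number of pathway genes past the threshold in edgeR was 5 of 69 without animal 1022 and 8 of 72 without animal 1322, against 1.18% and 3.72% of all genes. It was 1 of 70 without animal 1922, where 15 of all genes passed, and 0 without animal 1323, 1623 or 3622, where 3, 0 and 0 of all genes passed, so these fits say nothing particular to the pathway.

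**Figure D4:**
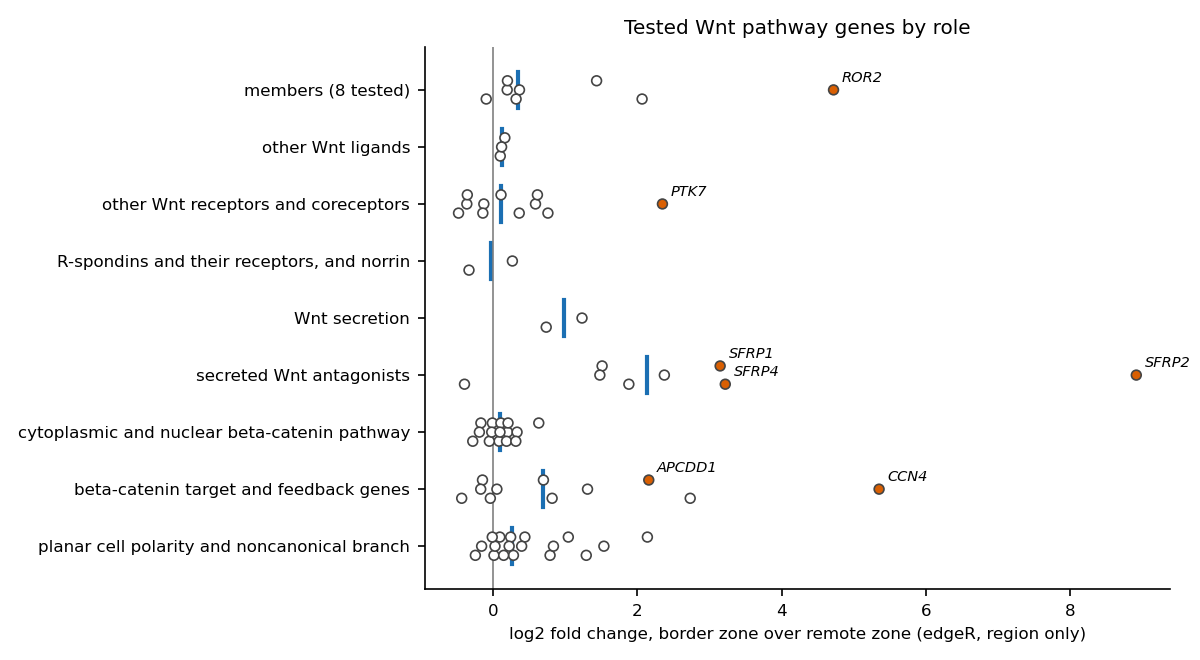
Log2 fold change of border zone over remote zone for each tested gene, by role, with orange points for an adjusted p under 0.05 and a blue bar at the median of each row. The called genes are ROR2, PTK7, SFRP1, SFRP2, SFRP4, APCDD1 and CCN4, and the row of secreted antagonists has the median farthest from 0, at 2.13.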

How the data were processed

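RNA of 6 border zone and 6 remote zone libraries was analysed. Raw read counts for each gene were deposited, which the authors made from poly(A)-enriched, nondirectional, paired-end libraries with STAR 2.7.10a and featureCounts 2.16.1. Build Sscrofa11.1 was annotated from Ensembl release 113, and FastQC 0.12.1 and MultiQC 1.17 served for quality control. Reads of overlapping genes on opposite strands cannot be told apart, and the options for reads matching several genes are not given in the sources used here. Region and animal came from the sample titles.

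Tests were run in edgeR 4.0.16 under R 4.3.3 (filterByExpr, TMM factors, robust quasi-likelihood test with region as the only term, 13844 genes, Benjamini-Hochberg adjustment, threshold 0.05) and DESeq2 1.42.0 as an alternative, with tables and figures made in Python 3.11.15 (SciPy 1.17.1, pysam 0.24.0, NumPy 2.4.6, pandas 2.3.3 and matplotlib 3.10.9). Standard errors were derived from the fitted change and its F statistic (change over the root of F). Log2 CPM used a prior count of 2. Symbols came from a table that paired 15623 identifiers. The genes named are the 10 genes of the group, pathway genes past the threshold, up to 4 others a list by mean CPM, and the 3 most similar genes of each tested gene. The 10 genes and all lists were chosen with earlier results of these data known. Of the marker lists, the endothelial, smooth muscle and pericyte, and epicardial lists had 0 calls (median log2 fold changes 0.16, 1.10 and 0.17), and the cardiomyocyte and macrophage lists also had 0 (-0.51 and 1.46).

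Libraries with the same number are from 1 animal. The reported edgeR fit had region as its only term and did not use these pairs. The pairs entered the alternative fit that blocks on the animal and the counts of animals higher in border tissue. They also entered the exact permutation tests of WNT2 and WNT2B. Deviations from the zone means had a mean r of 0.35 within animals, and 4 of 6 pairs were over 0.1. The comparison of the zones was tested on simulated data of 13844 genes, in which edgeR found 82.0% of 4-fold and 33.0% of 2-fold changes. With the animal as a replicate block edgeR found 76% and 19%, and DESeq2 found 87% and 57%. The simulated counts held no animal effect, unlike the paired libraries. Counts without molecular identifiers are not independent molecules. Alternatives left out each animal, mitochondrial genes or the filter, required 10 counts throughout, scaled by library totals or DESeq2 size factors, used the DESeq2 test or the animal as a replicate block, and set pseudocounts of 0.5 and 1. The fits of WNT2 and WNT2B with no filter and by DESeq2, those of WNT10B, WNT16, LEF1 and RSPO2, and the smooth muscle sum without DES were added after the data were seen.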

Additional observations from a re-analysis of the deposited data

Results flagged for a closer look

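In each zone, the highest or lowest of the 6 libraries was compared with its nearest neighbour for each of the 10 genes, 20 groups in all, of which chance sets apart about 1 in 20. A library stood apart in 2 groups, both times the lowest and from animal 3622. FZD4 had a log2 CPM of 2.18 in its border zone library (next 3.36, a gap of 0.626 of the range). AXIN2 had 0.97 in its remote zone library (next 1.79, a gap of 0.659 of the range). In the same remote zone library mitochondrial genes took 33.5% of the counts, against 13.6% to 21.4% in the other remote zone libraries, and its TMM factor was 0.671, the lowest of all 12. The part of these in the values was not tested.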

How the results depend on the processing

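The number of the 10 genes past the threshold, 1 of 8 in the reported fit, was 0 of 8 with the animal as a replicate block, 3 of 10 by the DESeq2 test, 3 of 8 with library totals, 0 of 10 with no filter, 0 of 7 with at least 10 counts in every library, and 0 to 1 with each animal left out. For the other pathway genes, 6 of 70 in the reported fit, it was 2 of 70 with the replicate block, 16 of 81 by DESeq2, 16 of 70 with library totals, 3 of 92 with no filter, 3 of 59 with at least 10 counts, and 0 to 8 with each animal left out. Of all genes 0.296% passed with the block, 10.3% by DESeq2, 11.2% with library totals, 0.462% with no filter, 1.23% with at least 10 counts, and 0% to 3.72% with each animal left out. With at least 10 counts ROR2 had no fit. In edgeR fits with 0 calls among the 10 genes, 2 to 4 had an unadjusted p under 0.05, ROR2 among them wherever it was fitted, and DESeq2 called ROR2, FZD1 and FZD2. The median log2 fold change of the 8 genes, or of 7 where ROR2 had no fit, stayed between 0.14 and 0.68, while that of all genes in the same fits reached up to 0.75. Of 102 values of single genes under the alternatives, 89 kept direction and side, 6 lost the call (all ROR2, 4 of them with an animal left out), 4 gained it (FZD1 and FZD2) and 3 turned, none of them past the threshold, which were WNT11 with library totals (0.20) and, without animal 1022, WNT5A (-0.065) and WNT9A (-0.014), whose values with each animal left out reached up to 0.67 and 0.35. The replicate block changed no other call among the 8. Library totals moved the median of all genes from 0.04 to 0.32. With 5 animals the smallest exact p is 0.0625, so WNT2B could not pass there. Its difference kept its sign in every alternative. Apart from fewer genes or samples, the cause of these changes was not tested. Depth limits WNT2 and WNT2B, with at most 17 and 49 counts in any library.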

Other observations

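Some pathway genes under the filter on low counts had values worth a second look, named after they were seen. They were not in the reported fit. WNT10B, a canonical ligand, had 0.146 to 1.47 CPM in border tissue and 0.0381 to 0.134 CPM in remote tissue, on 3 to 24 counts against 1 to 4. Its zones did not overlap, a pattern of 1.99% of all genes tested, a share not counted among genes under the filter. Its highest value was in the border library of animal 3622, which listed the most genes. WNT16 had 0 to 15 counts in border tissue, while the remote zone held 1 count in all 6 libraries together. LEF1, a partner of beta-catenin on DNA, had 102 counts in border tissue of animal 1022 (3.37 CPM), 22 in that of animal 3622 (1.34 CPM) and 3 to 12 in the other border libraries, against 2 to 8 in remote tissue. RSPO2, an R-spondin that strengthens Wnt reception, had 245 counts (8.10 CPM) in border tissue of animal 1022, and its next highest libraries were remote tissue of animals 1323 and 1623, with 0.955 and 0.954 CPM. In the edgeR fit with no filter, which held these 4 genes, none passed, with adjusted p of 0.127 for WNT10B, 0.157 for WNT16, 0.172 for LEF1 and 0.228 for RSPO2. By DESeq2, which called 10.3% of all genes with an adjusted p, WNT10B passed (adjusted p = 0.0177), WNT16 and LEF1 had 0.0766 and 0.0575, and RSPO2 was given no p. WNT3A and SP5 had 0 counts in all 12 libraries.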
